A study of Mus musculus with 12 samples.

Results

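The genes described here are 42 genes of DNA replication and mitosis, 22 of replication and 20 of mitosis. They were chosen by symbol for their textbook roles, with earlier results of these data known. Probe sets annotated to 41 of them were measured, all 22 replication genes and 19 of the 20 mitosis genes, among 16432 genes in all. Ccnb1, the cyclin B1 gene, was not analysed here because no probe set used here was annotated to it alone. The question was whether proliferation programmes moved on day 2 of 4-hydroxytamoxifen (OHT) treatment in mouse embryonic stem cells (ESCs) that lose Ring1B.

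All lines were Ring1A-/-;Ring1B fl/fl;Rosa26::CreERT2 ESCs of a 129/B6 hybrid background, so every sample lacked Ring1A, also before OHT. Ring1A and Ring1B are E3 ligases of Polycomb repressive complex 1 that place ubiquitin on histone H2A. CreERT2, driven by the Rosa26 locus in all cells, deletes endogenous Ring1B once OHT is given, here at 800 nM for 24 h with RNA taken on day 2. The 6 lines were stable puromycin-selected transfectants. The mock line carried an empty vector, WT #1 and WT #3 carried a wild-type Ring1B construct, I53S #1 and I53S #4 carried Ring1B (I53S), and I53A #1 carried Ring1B (I53A). The 3 lines with a changed Ring1B, both changes being described as impairing its ligase activity, are referred to as mutant lines. Each line gave 1 array without OHT (OHT-) and 1 with OHT (OHT+), 12 arrays in all, so the OHT+ minus OHT- difference of a line has no replicate within the line. Whether the mock and I53A classes, with 1 line each, would look the same in another transfectant was not measured.

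A dividing cell first licenses its origins by loading the MCM helicase in G1, then fires them and copies DNA in S phase, and later condenses, attaches and separates its chromosomes in mitosis. Many replication genes are transcribed around the start of S phase through E2F sites, and many mitotic genes later, through CCAAT boxes and the cell cycle homology region (CHR) bound by MuvB complexes. ESCs divide rapidly with a short G1 and are known for high expression of both groups of genes.

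The promoters were searched for these motifs, and 4 of them are shown because these genes recur in the results below. RefSeq windows of 300 bases on GRCm38.p6, from 250 bases before to 50 after a start site, matched 36 of the 42 genes by symbol. They are written 5′ to 3′ on the gene's own strand, which is the minus strand for all 4. Capitals mark an E2F word (TTTGGCGC, TTTCCCGC, TTTGCCGC or TTTCGCGC), a CCAAT box (CCAAT) or a CHR (TTTGAA), each on either strand, and adjoining capitals in Mcm6 are 2 E2F words that overlap. Mcm3 lies at chr1:20820263-20820562, Mcm6 at chr1:128359656-128359955, Cdc20 at chr4:118437294-118437593 and Ccnb2 at chr9:70421505-70421804.
Mcm3 promoter: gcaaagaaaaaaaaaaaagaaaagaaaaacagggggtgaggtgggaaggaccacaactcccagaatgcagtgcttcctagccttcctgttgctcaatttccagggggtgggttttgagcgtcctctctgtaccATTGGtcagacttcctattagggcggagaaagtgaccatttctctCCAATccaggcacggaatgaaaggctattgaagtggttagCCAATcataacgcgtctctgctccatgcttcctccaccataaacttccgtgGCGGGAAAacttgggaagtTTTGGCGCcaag
Mcm6 promoter: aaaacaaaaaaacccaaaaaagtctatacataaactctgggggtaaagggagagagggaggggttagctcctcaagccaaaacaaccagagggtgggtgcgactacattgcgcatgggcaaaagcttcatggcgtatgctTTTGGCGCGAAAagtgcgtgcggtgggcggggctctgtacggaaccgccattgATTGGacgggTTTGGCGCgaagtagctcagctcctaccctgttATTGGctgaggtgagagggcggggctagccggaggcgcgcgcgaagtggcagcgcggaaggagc
Cdc20 promoter: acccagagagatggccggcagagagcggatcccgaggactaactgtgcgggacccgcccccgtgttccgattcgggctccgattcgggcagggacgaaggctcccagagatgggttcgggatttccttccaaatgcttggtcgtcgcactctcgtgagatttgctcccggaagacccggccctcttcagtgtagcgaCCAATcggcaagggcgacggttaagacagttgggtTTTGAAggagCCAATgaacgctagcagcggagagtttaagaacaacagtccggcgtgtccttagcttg
Ccnb2 promoter: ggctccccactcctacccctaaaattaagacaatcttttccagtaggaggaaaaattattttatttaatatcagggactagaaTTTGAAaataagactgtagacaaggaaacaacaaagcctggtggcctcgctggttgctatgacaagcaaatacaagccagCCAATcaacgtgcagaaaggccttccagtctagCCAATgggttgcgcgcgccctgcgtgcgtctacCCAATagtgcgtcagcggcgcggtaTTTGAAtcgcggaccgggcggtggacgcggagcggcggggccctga
The Mcm3 window held 2 E2F words and 3 CCAAT boxes, and the Mcm6 window 3 E2F words and 2 CCAAT boxes, with no CHR in either. The Cdc20 window held 2 CCAAT boxes and 1 CHR, and the Ccnb2 window 3 CCAAT boxes and 2 CHRs, with no E2F word in either. An E2F word stood in a window of 9 of the 19 matched replication genes (47.4%), of 1 of the 17 matched mitosis genes (5.88%) and of 2.6% of 27025 genes with a window. A CHR stood in 3 of the 19 replication genes (15.8%), 11 of the 17 mitosis genes (64.7%) and 20.2% of all. A CCAAT box stood in 12 (63.2%), 14 (82.4%) and 41.1%. The 4 windows shown do not stand for all members. The windows of Nusap1 and Rfc4 held none of these motifs, and those of Mcm2 and Cdc45 held a CHR and no E2F word. These are letter matches, and neither binding nor timing was measured on them here.

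Signals are given as log2 values after quantile normalization of the 12 arrays, averaged over the probe sets of a gene. The array medians as deposited lay between 4.66 and 5.67. Rnf2, the gene of Ring1B, differed by -0.26 in the mock line after OHT, and since its probe sets were not placed relative to the deleted part, this does not check the deletion. The 10 ESC markers measured had a median signal between 11.51 and 11.98 on every array. The summed signal of 10 fibroblast markers, which mark the feeder cells that some ESC cultures are grown on, went from 2227 to 3499 in the mock line and from 2061 to 3373 in I53S #1, and lay between 1244 and 1979 on the other 8 arrays. The labels do not say which cultures had feeders. In bulk RNA, fewer cells of a type and less RNA per cell cannot be told apart.

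On day 2 the replication and mitosis genes stayed close to their level before OHT. Of the 41 genes, 38 in the mock line, 41 in each WT line, 41 in I53S #1, 40 in I53S #4 and 39 in I53A #1 differed by less than 0.5 (log2) from the untreated array of the same line. Over all genes, the share within 0.5 lay between 74.9% in the mock line and 89.1% in WT #3. The median size of a difference over all genes and lines of the set was 0.12. For scale, the median standard deviation of their level among the 6 untreated lines was 0.16. In the fit of limma (line as a block, Benjamini-Hochberg adjustment over all genes), no member passed an adjusted p of 0.05 in the 3 mutant lines, where 6.46% of all genes did. At an unadjusted p under 0.05 there were 5 of 41, against 23.7% of all genes: Gmnn, Mcm6, Rfc4 and Nusap1 lower and Cdc20 higher.

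The WT lines gave 0 members at the adjusted threshold, as over all genes (0%), and 1, Nusap1, at an unadjusted p under 0.05, where 7.61% of all genes stood. The mock line, which takes its spread from the other lines, gave 0 members where 1.67% of all genes passed. At an unadjusted p under 0.05 the mock line gave 5 (all genes 19.9%): Mcm6, Cdc45, Ttk and Nusap1 lower and Kif20a higher. With 1 effect of OHT fitted to all 6 lines, 1 member passed, Nusap1, where 1.34% of all genes did, and 4 stood at an unadjusted p under 0.05 (all genes 23.2%). Nusap1, Gmnn and Pola1 were the lower ones and Cdc20 the higher one.

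The precision of the arrays bounds what could have been missed. The members had a median signal of 10.32, against 6.11 for all genes, and bright probe sets varied less than dim ones, so the shares of members and of all genes set side by side here are not between genes of like signal. The 95% interval of limma for the mean difference lay wholly within 0.5 of 0 for 35 of 41 members in the mutant lines (85.4%, all genes 49.6%). It did so for 36 in the WT lines (87.8%, all genes 47.3%) and for 39 over all 6 lines (95.1%, all genes 68.6%). In the mock line it did so for 13 (31.7%, all genes 10.5%), so a difference of that size could be set aside for few members there.

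**Figure D1:**
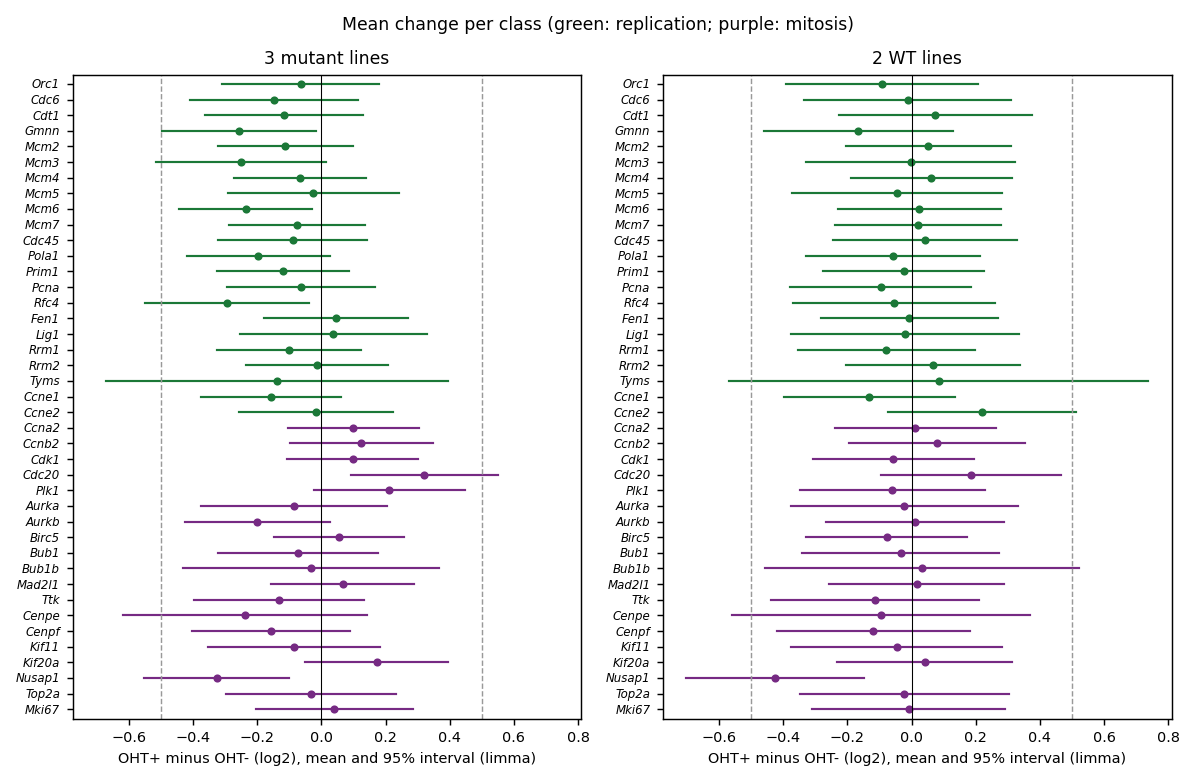
Mean OHT+ minus OHT- difference (log2, x axis) of each member (y axis) in the 3 mutant lines and the 2 WT lines, with the 95% interval of limma as a horizontal bar, replication genes in green and mitosis genes in purple, and dashed lines at -0.5 and 0.5. Most bars lie between the dashed lines, 35 of 41 in the mutant lines and 36 of 41 in the WT lines, and Nusap1 stands lowest in the WT lines at -0.43.

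The replication genes lay slightly below and the mitosis genes at or slightly above their untreated level in the mock and mutant lines. The median difference of the 22 replication genes was -0.09 in the mock line, -0.01 in both WT #1 and WT #3, -0.20 in I53S #1, -0.09 in I53S #4 and -0.06 in I53A #1. The median of the 19 mitosis genes was 0.16 in the mock line, -0.02 and -0.05 in WT #1 and WT #3, 0.08 in I53S #1, 0.01 in I53S #4 and 0.01 in I53A #1. Mitosis minus replication was therefore 0.26 in the mock line, 0.27 in I53S #1, 0.10 in I53S #4 and 0.06 in I53A #1, against -0.01 and -0.04 in the WT lines. The median of all genes was within 0.01 of 0 in each line. Of the replication genes, 17 of 22 were below their untreated level in the mock line, 21 in I53S #1, 14 in I53S #4, 16 in I53A #1 and 12 in each WT line. Of the mitosis genes, 13 of 19 were above it in the mock line, 13 in I53S #1, 11 in I53S #4, 10 in I53A #1, and 8 and 7 in the WT lines. The fibroblast markers had a median difference of 0.72 in the mock line and 0.61 in I53S #1, where the gap was widest, of 0.18 in I53S #4, 0.05 in I53A #1, 0.01 in WT #1 and -0.03 in WT #3. The part of this in the gap was not tested. Taken over the mean of the 3 mutant lines, the median was -0.11 for the replication genes and -0.03 for the mitosis genes, so the mitosis list was below 0 by that measure and above 0 by its median in each line. These medians are a description of genes that share arrays and regulators, with no test.

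**Figure D2:**
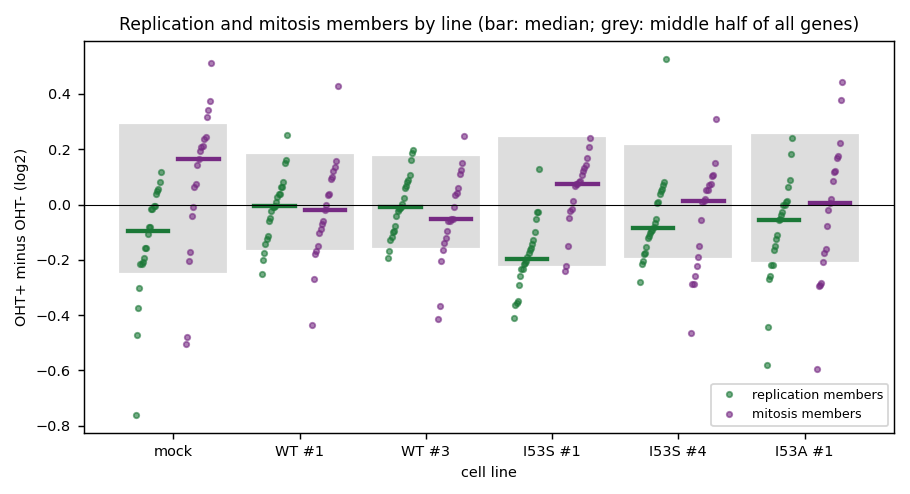
OHT+ minus OHT- difference (log2, y axis) of each replication gene (green points) and mitosis gene (purple points) in the 6 lines (x axis), with the median of each list as a bar and the middle 50% of all genes as a grey box. The 2 medians lie furthest apart in the mock line and I53S #1 and nearly together in WT #1 and WT #3.

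Differences between the classes of lines were tested directly. For mutant minus WT lines, 0 of 41 members passed the adjusted threshold (all genes 0%) and 0 stood at an unadjusted p under 0.05, where 12.6% of all genes did. For mock minus WT lines, 0 passed (all genes 0%) and 1, Cdc45, stood at an unadjusted p under 0.05 (all genes 14.4%). Before OHT, mutant minus WT lines gave 0 members (all genes 0%), and Pola1 and Cenpe at an unadjusted p under 0.05 (all genes 5.25%). The untreated level of Pola1 was 6.79 in WT #1 and 6.98 in WT #3, against 6.55, 6.29 and 6.54 in the mutant lines. That of Cenpe was 8.84 and 8.77 against 8.19, 8.50 and 8.23. The untreated WT and mutant lines did not overlap in these means, but for Cenpe this came from the dimmer probe set, and the brighter one overlapped, with 9.88 and 9.61 against 9.56, 9.73 and 9.81. The limma difference was -0.42 (SE 0.17, adjusted p = 0.945) for Pola1 and -0.50 (SE 0.17, adjusted p = 0.933) for Cenpe.

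Among the genes of origin licensing, Gmnn, whose product geminin holds back relicensing by binding Cdt1, was lower after OHT in 6 of 6 lines. Its log2 signal went from 11.75 to 11.55 in the mock line, from 12.04 to 11.84 in WT #1, from 11.86 to 11.73 in WT #3, from 11.55 to 11.14 in I53S #1, from 11.53 to 11.42 in I53S #4 and from 11.77 to 11.51 in I53A #1. The WT lines lay within the range of the mutant lines, and I53S #1 had the widest shift. limma gave -0.22 over all 6 lines (SE 0.07, adjusted p = 0.105) and -0.26 in the mutant lines (SE 0.10, adjusted p = 0.186). Cdc6, the ATPase that loads the helicase, differed by between -0.35 in I53S #1 and 0.06 in I53S #4. Cdt1, its loading partner, ranged from -0.23 in I53S #1 to 0.20 in WT #3. Orc1, the largest subunit of the origin recognition complex, ranged from -0.19 in I53S #1 to 0.09 in I53A #1. For these 3 genes the signs were mixed among lines, and I53S #1 was the lowest line for each.

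The MCM2-7 ring is the replicative helicase. Mcm6 had a log2 signal of 11.55 before and 11.17 after OHT in the mock line, 11.27 and 11.33 in WT #1, 11.55 and 11.54 in WT #3, 11.41 and 11.15 in I53S #1, 11.42 and 11.25 in I53S #4, and 11.54 and 11.27 in I53A #1. It was lower in the mock line and in all 3 mutant lines and within 0.1 of its untreated level in both WT lines. The limma difference was -0.24 in the mutant lines (SE 0.08, adjusted p = 0.166) and -0.26 for mutant minus WT (SE 0.13, adjusted p = 0.501). Its 2 probe sets were both bright but unequal, with a mean difference of -0.08 for the brighter and -0.26 for the other. The brighter was not split by class, with -0.28, 0.0076 and -0.03 in I53S #1, I53S #4 and I53A #1. It gave -0.16 in the mock line and -0.07 and 0.03 in WT #1 and WT #3. The split came from the other, with -0.24, -0.36 and -0.51 in the same mutant lines, -0.59 in the mock line and 0.19 and -0.06 in the WT lines. Mcm3 went from 9.92 to 9.61 in the mock line, from 9.68 to 9.84 in WT #1, from 9.80 to 9.63 in WT #3, from 9.97 to 9.61 in I53S #1, from 9.64 to 9.36 in I53S #4 and from 9.87 to 9.76 in I53A #1. WT #1 alone went the other way, through a dim probe set that differed by 1.04 there while the other 4 probe sets of Mcm3 differed by between -0.13 and -0.0037.

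Mcm2 and Mcm4 were lower in all 3 mutant lines and higher in both WT lines, by small amounts. Mcm2 differed by -0.16, -0.15 and -0.03 in I53S #1, I53S #4 and I53A #1 and by 0.04 and 0.07 in WT #1 and WT #3. Mcm4 differed by -0.03, -0.12 and -0.05 in the same mutant lines and by 0.06 in each WT line. Neither of the 2 probe sets of either gene was split in this way alone, and neither difference between classes passed a test (limma, adjusted p = 0.678 and 0.748). Mcm7 lay between -0.14 and 0.04 in the 6 lines and Mcm5 between -0.25 and 0.16. The ends of Mcm5, WT #1 and WT #3, came from a dim probe set that differed by -0.60 and 0.55 there, and its 2 bright probe sets gave -0.19 and 0.03 in WT #1 and -0.01 and -0.06 in WT #3. Cdc45, which joins the ring to make the active helicase, went from 7.50 to 7.03 in the mock line and differed by between -0.22 and 0.09 in the other lines. Its mock minus WT difference of -0.51 (SE 0.20, adjusted p = 0.332) was the one at an unadjusted p under 0.05. The brighter probe set of Cdc45 differed by -0.0067 in the mock line and the dimmer one, with a mean signal of 6.26, by -0.93, so these values came from the dimmer.

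Of the polymerase and Okazaki fragment genes, Pola1 and Prim1, the catalytic and primase subunits of DNA polymerase alpha-primase, were lower after OHT in 6 of 6 lines. Pola1 went from 6.81 to 6.59 in the mock line, from 6.79 to 6.77 in WT #1, from 6.98 to 6.88 in WT #3, from 6.55 to 6.26 in I53S #1, from 6.29 to 6.21 in I53S #4 and from 6.54 to 6.32 in I53A #1. The mean was -0.15 over all 6 lines (limma, SE 0.07, adjusted p = 0.211), and the one bright probe set of Pola1 gave -0.26. Prim1 differed by between -0.16 in the mock line and I53S #1 and -0.01 in WT #1. Rfc4, a subunit of the clamp loader, went from 10.36 to 10.25 in the mock line, from 10.20 to 10.28 in WT #1, from 10.63 to 10.44 in WT #3, from 10.24 to 10.00 in I53S #1, from 10.51 to 10.31 in I53S #4 and from 10.56 to 10.11 in I53A #1. It was lower in 5 of 6 lines, WT #3 among them, with -0.29 in the mutant lines (limma, SE 0.10, adjusted p = 0.163). Pcna, the sliding clamp, had signals between 13.26 and 13.60 on all 12 arrays and differences between -0.20 and 0.06. Fen1, the flap endonuclease, lay between -0.05 and 0.18, and Lig1, the ligase that seals Okazaki fragments, between -0.21 and 0.24.

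Nucleotide supply did not move in one direction. Rrm1 and Rrm2, the subunits of ribonucleotide reductase, differed by between -0.18 and 0.04 and between -0.13 and 0.11. Tyms, thymidylate synthase, ranged from -0.76 in the mock line to 0.53 in I53S #4, but its kept probe sets had mean signals of only 5.33 and 4.58. The widest spread of any replication gene thus came from one read by dim probe sets alone. Of the cyclins that drive entry into S phase, Ccne1 was lower in 5 of 6 lines, between -0.22 and 0.08, and Ccne2 lay between -0.18 in I53S #4 and 0.25 in WT #1.

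**Figure D3:**
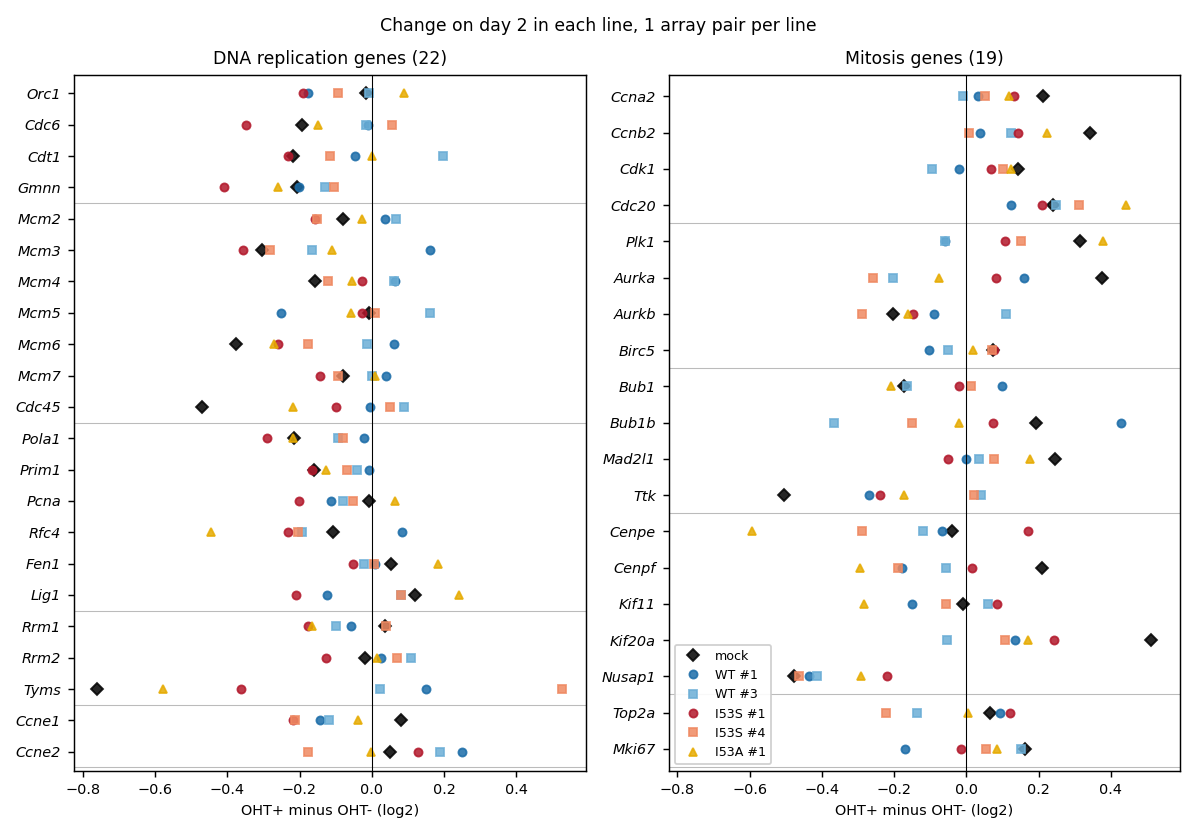
OHT+ minus OHT- difference (log2, x axis) of each of the 41 members (y axis, grouped by role between the grey lines) in the 6 lines, with 1 symbol per line and 1 array pair behind each symbol. All 6 symbols lie left of 0 for Gmnn, Pola1, Prim1 and Nusap1 and right of 0 for Cdc20 and Ccnb2, and Tyms has the widest spread.

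Among the mitosis genes, 4 were grouped as cyclin-CDK and anaphase-promoting complex genes, Cdc20, Ccnb2, Cdk1 and Ccna2. Their median difference was above 0 in all 6 lines, 0.23 in mock, 0.03 in WT #1, 0.06 in WT #3, 0.14 in I53S #1, 0.08 in I53S #4 and 0.17 in I53A #1. Cdc20, the activator of the anaphase-promoting complex, went from 11.24 to 11.48 in the mock line, from 11.22 to 11.34 in WT #1, from 11.04 to 11.29 in WT #3, from 11.33 to 11.54 in I53S #1, from 11.39 to 11.70 in I53S #4 and from 11.08 to 11.52 in I53A #1. It was higher after OHT in 6 of 6 lines, WT lines included, and in all of its 3 probe sets. limma gave 0.26 over all 6 lines (SE 0.07, adjusted p = 0.0748), 0.32 in the mutant lines (SE 0.09, adjusted p = 0.109) and 0.14 for mutant minus WT (SE 0.15, adjusted p = 0.766).

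Ccnb2, cyclin B2, was also higher in 6 of 6 lines. It went from 10.99 to 11.33 in the mock line, from 11.68 to 11.71 in WT #1, from 11.05 to 11.18 in WT #3, from 11.44 to 11.58 in I53S #1, from 11.42 to 11.65 in I53A #1, and stood at 11.91 on both arrays of I53S #4. The mean of 0.15 (limma, SE 0.07, adjusted p = 0.252) was small beside the range of its untreated level among lines, from 10.99 to 11.91. Cdk1, the mitotic kinase itself, was higher by 0.07, 0.10 and 0.12 in I53S #1, I53S #4 and I53A #1 and by 0.14 in the mock line, and lower by 0.02 and 0.09 in the WT lines. Ccna2, cyclin A2, lay between -0.01 and 0.21. Over all genes, 6.27% were lower and 7.97% higher in 6 of 6 lines, against 4 and 2 of the 41 members (9.76% and 4.88%).

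Of the mitotic kinases, Plk1, which acts at mitotic entry and at kinetochores, went from 9.73 to 10.04 in the mock line, from 10.26 to 10.20 in WT #1, from 9.99 to 9.93 in WT #3, from 10.25 to 10.35 in I53S #1, from 10.16 to 10.31 in I53S #4 and from 9.93 to 10.31 in I53A #1. It was higher in the mock and mutant lines and slightly lower in both WT lines, and mutant minus WT was 0.27 (limma, SE 0.15, 95% interval -0.10 to 0.64, adjusted p = 0.53). Birc5, survivin of the chromosomal passenger complex, was split in the same way by less, with 0.08, 0.07 and 0.02 in the mutant lines and -0.10 and -0.05 in the WT lines. Aurkb, the kinase of that complex, lay between -0.29 in I53S #4 and 0.11 in WT #3. Aurka, the centrosomal kinase, ranged from -0.26 in I53S #4 to 0.38 in the mock line, and its probe sets disagreed. The bright one differed by 0.55 in mock, -0.0031 in WT #1, 0.04 in WT #3, 0.20 in I53S #1, 0.30 in I53S #4 and 0.27 in I53A #1, while the other, with a mean signal of 3.69, had a mean difference of -0.20.

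The spindle assembly checkpoint genes showed no common direction. Ttk, the kinase that starts the checkpoint signal, differed by -0.51 in the mock line and by between -0.27 and 0.04 in the other lines. Its brighter probe set differed by 0.01 in the mock line and its dimmer one by -1.02, so the mock value rested on the dimmer. Bub1 lay between -0.21 and 0.10, Bub1b (BubR1) between -0.37 in WT #3 and 0.43 in WT #1, and Mad2l1 (Mad2) between -0.05 and 0.24. The values of Bub1b in the WT lines came from a dim probe set, at 1.15 in WT #1 and -1.16 in WT #3, while its 2 bright probe sets gave 0.04 and 0.10 in WT #1 and 0.02 and 0.04 in WT #3.

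Of the kinetochore and spindle genes, Kif20a, a kinesin of the central spindle, went from 10.14 to 10.65 in the mock line, from 10.39 to 10.52 in WT #1, from 10.57 to 10.51 in WT #3, from 10.40 to 10.64 in I53S #1, from 10.42 to 10.53 in I53S #4 and from 10.40 to 10.57 in I53A #1. The mock line had the lowest untreated signal and the highest treated one, with a difference of 0.51 (limma, SE 0.16, adjusted p = 0.164). Cenpe, a kinetochore motor, ranged from -0.59 in I53A #1 to 0.17 in I53S #1, with mean differences of 0.13 and -0.44 for its brighter and dimmer probe sets. Cenpf, a kinetochore protein of late G2, ranged from -0.29 to 0.21, and Kif11, the motor that separates spindle poles, from -0.28 to 0.08. Top2a, which untangles sister chromatids, ranged from -0.22 to 0.12, and Mki67, the proliferation marker Ki-67, from -0.17 in WT #1 to 0.16 in the mock line.

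Nusap1, a microtubule-bundling protein of the spindle, was the one member that passed the test over all 6 lines. Its log2 signal went from 7.98 to 7.50 in the mock line, from 8.57 to 8.13 in WT #1, from 8.40 to 7.99 in WT #3, from 8.01 to 7.79 in I53S #1, from 8.32 to 7.86 in I53S #4 and from 8.48 to 8.19 in I53A #1. It fell in 6 of 6 lines, by 0.38 on the log2 scale (limma, SE 0.07, adjusted p = 0.0463), with means of -0.43 in the WT and -0.33 in the mutant lines (mutant minus WT 0.10, SE 0.14, adjusted p = 0.835). The fall came from 1 of its 2 probe sets, the dim one with a mean signal of 5.04, whose mean difference was -0.69. The bright one, with a mean signal of 11.16, differed by -0.38 in the mock line and by 0.03, -0.0017, -0.07, 0.08 and -0.13 in WT #1, WT #3, I53S #1, I53S #4 and I53A #1, with a mean of -0.08. With the probe set of highest mean for each gene the adjusted p of Nusap1 was 0.592 (limma). With only probe sets of a mean signal above 8 it was 0.414 (limma). The call was also lost without the mock, I53S #1, I53S #4 or I53A #1 line (adjusted p from 0.118 to 0.138). Without any of those lines, 0.0122% of all genes or less passed over all lines.

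**Figure D4:**
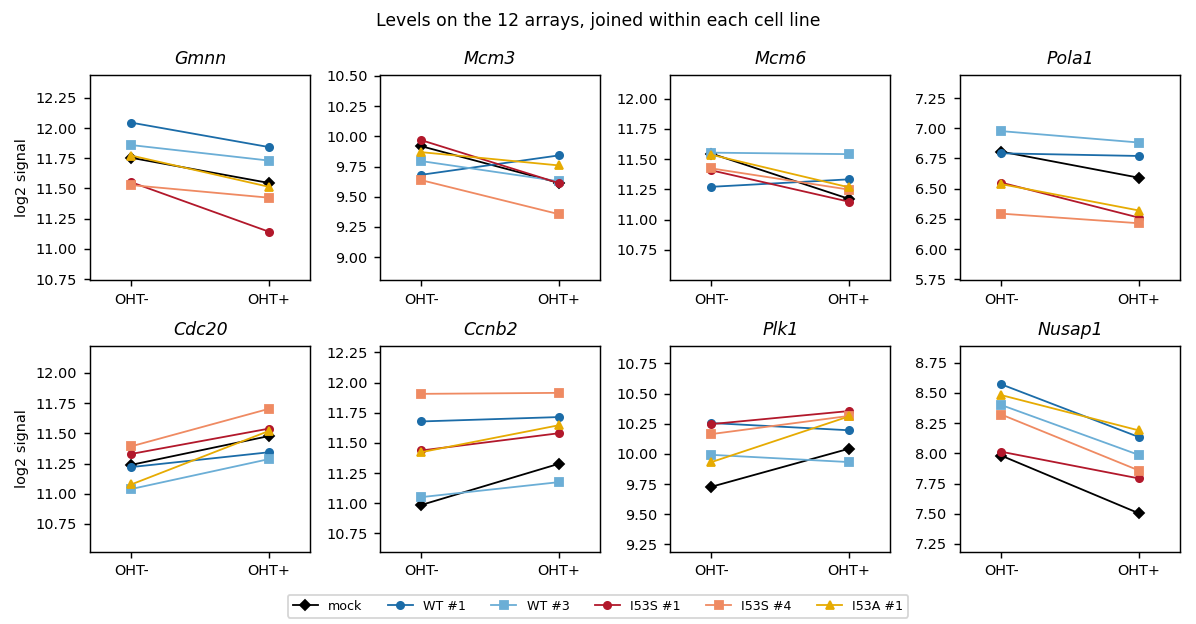
Log2 signal (y axis, the same span of 1.7 in each panel) of 8 members on the OHT- and OHT+ arrays (x axis), with a line joining the 2 arrays of each cell line. Gmnn, Pola1 and Nusap1 slope down and Cdc20 slopes up in all 6 lines, and for Mcm6 and Plk1 the slopes of the WT lines differ from those of the other 4. For Mcm6 this came from 1 of its 2 probe sets.

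Probe set brightness set the precision of these values. Of the 82 member probe sets kept, 65 had a mean log2 signal above 8, with a median standard deviation of the difference over lines of 0.13 and mean differences between -0.32 and 0.32. The 17 dimmer ones had a median standard deviation of 0.41 and mean differences between -0.69 and 0.08. With probe sets above 8 alone, a setting chosen after seeing the data, 5765 genes and 40 members remained, and the fit called more of both. In the mutant lines 7 of 40 members passed, with 22% of all genes: Gmnn, Mcm3, Mcm6, Pola1 and Rfc4 lower, by -0.26, -0.27, -0.24, -0.28 and -0.29, and Cdc20 and Aurka higher, by 0.32 and 0.26. All replication genes among them were lower and both mitosis genes higher, while of all genes 592 were called higher and 677 lower. In the mock line 5 passed, with 17.9% of all genes: Mcm6 (-0.38), Pola1 (-0.43) and Nusap1 (-0.38) lower, and Kif20a (0.51) and Aurka (0.55) higher. Over all 6 lines 4 passed, with 15.5% of all genes: Gmnn (-0.22), Mcm3 (-0.21) and Pola1 (-0.26) lower and Cdc20 (0.26) higher. Under this setting Mcm3 was lower in 6 of 6 lines, between -0.46 in I53S #1 and -0.06 in WT #1.

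**Figure D5:**
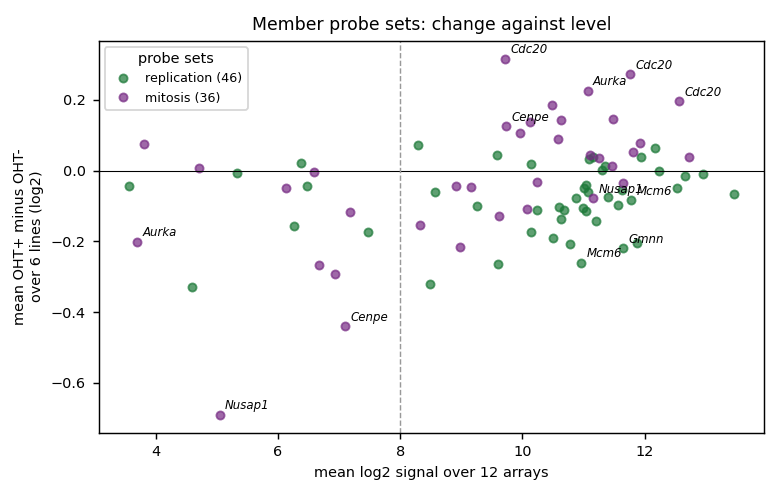
Mean OHT+ minus OHT- difference over the 6 lines (log2, y axis) of each of the 82 member probe sets against its mean log2 signal over the 12 arrays (x axis), with the dashed line at 8 and the probe sets of 6 genes labelled. Bright probe sets lie between -0.32 and 0.32, all 3 of Cdc20 lie above 0, and the probe set of Nusap1 near a signal of 5 lies lowest at -0.69.

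Of 43 further replication genes, 0 passed in the mutant lines, where 6.46% of all genes did. At an unadjusted p under 0.05, 10 (23.3%) were lower and 0 higher. Of all 16432 genes, 1638 were lower and 2250 higher at that p (23.7% in either direction). The median was -0.13 there, -0.04 for WT and -0.18 for mock. Over all 6 lines 1 of the 43 fell (2.33%, all genes 1.34%), Rfc1, the large subunit of the clamp loader, with differences of -0.51 in mock, -0.23 in WT #1, -0.33 in WT #3, -0.44 in I53S #1, -0.29 in I53S #4 and -0.62 in I53A #1 (limma mean -0.40, SE 0.07, adjusted p = 0.0496). At an unadjusted p under 0.05 there were 16 of the 43 (37.2%, all genes 23.2%), 15 lower and 1 higher. Of 56 further mitosis genes, 6 (10.7%) stood at an unadjusted p under 0.05 in the mutant lines and 1 fell, Spc24 of the NDC80 kinetochore complex, with -0.30, -0.57 and -0.57 there, -0.52 in the mock line and -0.11 in each WT line (limma mean of the mutant lines -0.48, SE 0.10, adjusted p = 0.0473). The median of the 56 was 0.10 for mock and within 0.01 of 0 for the mutant lines. Rfc1 lost its call without any 1 line other than WT #1 (limma, adjusted p from 0.0508 to 0.151), at means from -0.36 to -0.44 with each line left out. Over all lines, 3.74% of all genes passed without WT #3, and 0.0122% or less without the mock or any 1 mutant line. Spc24 lost its call without any 1 line other than the mock line (limma, adjusted p up to 0.187 without a mutant line), at means from -0.43 to -0.57. Without any 1 mutant line, 0.931% to 1.18% of all genes passed in the mutant lines.

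Among 21 transcription regulators of the cell cycle, 1 rose and 2 fell in the mutant lines, where 6.46% of all genes passed. E2f6, a repressive E2F that also belongs to a Polycomb complex, differed by 0.82, 0.55 and 0.56 in I53S #1, I53S #4 and I53A #1, by 0.71 in mock, by 0.07 in WT #1 and by 0.02 in WT #3 (limma mean of the mutant lines 0.64, SE 0.10, adjusted p = 0.0215). Myc, a driver of growth and proliferation genes, differed by -0.59, -0.60 and -0.95 in the same mutant lines, by -1.10 in mock, by 0.13 in WT #1 and by 0.05 in WT #3 (mutant mean -0.71, SE 0.11, adjusted p = 0.022 with limma). Mycn, its paralog with a high level in ESCs, differed by -0.68, -0.44 and -0.49, by -0.97 in mock, by -0.07 in WT #1 and by -0.17 in WT #3 (mutant mean -0.54, SE 0.09, adjusted p = 0.0318 with limma). For all 3 genes the mock and mutant lines lay apart from the WT lines, but mutant minus WT did not pass over all genes (limma, adjusted p = 0.221, 0.182 and 0.351). Myc had no probe set with a mean signal above 8. With bright probe sets alone, E2f6 differed by 0.97 and Mycn by -0.89 in the mutant lines. Without any 1 of the 3 mutant lines the adjusted p of E2f6, Myc and Mycn lay between 0.0877 and 0.141 (limma), so that their calls were lost. Calls over all genes also became few in those fits, with 0.931% to 1.18% in the mutant lines. Mycn also lost its call without either WT line. Of 7 G1 cyclins and CDKs none passed in the mutant lines. At an unadjusted p under 0.05 there were 3 (42.9%, all genes 23.7%). The smallest p belonged to Cdk4, the cyclin D kinase, at -0.34 (adjusted p = 0.0939), and Ccnd2, cyclin D2, at 0.37 (adjusted p = 0.122), both with limma.

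Klf4 was the ESC marker called in the mutant lines, at 0.55 (limma, SE 0.10, adjusted p = 0.0354), where 6.46% of all genes passed. Of the 10 ESC markers, 8 were below 0 there and 7 of them at an unadjusted p under 0.05. At that p, 1638 of all 16432 genes were lower and 23.7% stood in either direction. Its call was lost without any 1 of the mutant lines (adjusted p from 0.097 to 0.146) or either WT line (0.0669), at differences from 0.46 to 0.63. Thy1 was the fibroblast marker called, at 0.68 in the mutant lines (limma, adjusted p = 0.0186) and 1.32 in the mock line (adjusted p = 0.0366). The first call was lost without any 1 of the mutant lines (adjusted p from 0.0891 to 0.0974), at differences from 0.64 to 0.70, and the second without any 1 of the other lines (0.0723 to 0.0834). Thy1, like Myc, had no probe set with a mean signal above 8. All 10 fibroblast markers were above 0 in the mock line and 9 of 10 in the mutant lines. Their part in the differences of the replication and mitosis genes was not tested. Without the mock line and I53S #1, the lines with the largest difference in fibroblast signal, no member passed in any comparison. Of all genes, 0.98% passed in the mutant lines of that fit and 0% over all lines. Over the mean of the remaining mutant lines, the median was -0.07 for the replication genes and -0.08 for the mitosis genes. The lines left out also had the widest mitosis minus replication gap, 0.26 in mock and 0.27 in I53S #1. Leaving them out is therefore no test of the fibroblast signal. By the medians within each line, the gap was 0.10 in I53S #4 and 0.06 in I53A #1. With bright probe sets alone, the mitosis median was 0.08 in each of these lines. The replication median was then -0.09 in I53S #4 and -0.03 in I53A #1.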

How the data were processed

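RNA of 6 lines was measured on 12 Affymetrix mouse arrays. Values of each probe set on each array were deposited as log2 signals. The submitters' processing notes name Affymetrix Expression Console and RMA, while the supplementary methods describe MAS5 signals, quantile normalization and the mean over the probe sets of a gene. Versions are not given in the sources used here. Because the distributions of these deposited log2 values differed between arrays, the arrays were quantile-normalized. Of 45037 probe sets that were not controls, 34945 had 1 symbol, 932 several and 9160 none. Those with 1 symbol and a highest signal above 3.94, the 30th percentile, were averaged per gene. The members and gene lists were chosen with earlier results of these data known.

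The fit used limma 3.58.1 (lmFit, then eBayes, two-sided tests), statmod 1.5.0 and R 4.3.3. Its terms were the line, as a block, and OHT, per class (3 residual and 2.79 prior degrees of freedom) or over all lines (5 and 2.83). Adjustment of p-values was that of Benjamini and Hochberg, over 16432 genes. They measure the spread between lines, which are separate transfectants, and their precision is limited by the number of arrays. The 2 arrays of a line are paired by the line, and their deviations from the class mean correlated at 0.27 for the WT lines and 0.36 to 0.43 for the mutant lines. The genes named in full were every member called and the 2 members of each role with the largest mean difference over the lines. For each other list they were up to 4 genes called in any comparison, those with the largest difference in the mutant lines. With none called, they were the 2 with the smallest p in the mutant lines. Members outside this rule are given by their range, and Cdc45, Cenpe, Cdk1, Birc5, Mcm2, Mcm4, Prim1, Mcm5, Bub1b and Aurka were described further after their values were seen. The fit was tested on simulated data. The alternatives were the values as deposited, arrays centred on their medians, the probe set with the highest mean, no shared-sequence probe sets (_s_at and _x_at), no filter or a filter on the mean, no block, priors that were trended and robust, I53S lines alone, and each line left out. Bright probe sets alone, and the fit without the mock and I53S #1 lines, were added after seeing the data. Sequences came from RefSeq (GRCm38.p6), and motifs were matched as letters on both strands.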

Additional observations from a re-analysis of the deposited data

Results flagged for a closer look

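For 5 of the 41 members every mutant line differed in one direction after OHT and both WT lines in the other. Mcm2 and Mcm4, subunits of the replicative helicase, were lower in the mutant lines, with mutant minus WT differences of -0.16 and -0.13 (log2). Cdk1, Plk1 and Birc5, which act in mitosis, were higher in the mutant lines, with differences of 0.15, 0.27 and 0.13. Mcm2 and Mcm4 have 2 probe sets each, none of which was split in this way alone, and the other 3 genes have 1. Over all genes, 1402 of 16432 (8.53%) were split in this way, against 12.2% of the members. None of the 5 differences between the classes passed limma (adjusted p from 0.53 to 0.748), and none stood at an unadjusted p under 0.05.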

How the results depend on the processing

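The number of arrays, and dim probe sets, limit these results. With the values as deposited, the median of all genes shifted by -0.13 in the mutant lines, -0.34 for mock and -0.12 over all 6 lines. The medians of replication and mitosis genes then read -0.22 and -0.16 in the mutant lines, -0.52 and -0.27 for mock and -0.21 and -0.13 over all 6 lines, so relative to all genes replication stayed below and mitosis lay within 0.1 of the shift. That setting called 3 members in the mock line (Cdc45, Nusap1 and Ttk, with 5.52% of all genes) and turned Ccne2 to -0.0298, Ccnb2 to -2e-04, Mad2l1 to -0.0643 and Mki67 to -0.10 over all 6 lines. The median of the mitosis genes in the mock line was 0.11 with arrays centred on their medians and 0.13 with the probe set of highest mean. In the mutant lines it was 0.0606 with that probe set, 0.0407 with the filter on the mean, 0.0125 with the I53S lines alone, 0.0668 with bright probe sets, -0.0764 without the mock and I53S #1 lines, and from -0.0764 to 0.0345 with each line left out. Over all 6 lines it was 0.0535 with bright probe sets and -0.0268 without the mock and I53S #1 lines. The median of the replication genes stayed below 0 in the mock and mutant lines and over all 6 lines under every alternative run. Beyond the values as deposited it lay between -0.1232 and -0.0684 in the mutant lines (lowest with the I53S lines alone, nearest to 0 with the probe set of highest mean), between -0.1423 and -0.045 for mock and between -0.091 and -0.0321 over all 6 lines, nearest to 0 without the mock and I53S #1 lines and at -0.045 without I53S #1 alone. Members called over all 6 lines numbered 0 with the probe set of highest mean (0.943% of all genes) and with no replicate block, the unpaired fit (2.53%). They also numbered 0 with the I53S lines alone (0.0122%) and without the mock and I53S #1 lines (0%). They numbered 2 with the filter on the mean (Cdc20 and Pola1, 9.85% of all genes), 3 with trended and robust priors (Cdc20, Gmnn and Nusap1, 9.65%) and 4 with bright probe sets (15.5%). With 1 line left out they numbered 0 without the mock or a mutant line (0.0122% of all genes or less). They numbered 1 without either WT line (5.08% of all genes without WT #1 and 3.74% without WT #3). In the mutant lines they numbered 1 with the filter on the mean (Cdc20, 15.2% of all genes), 5 with trended and robust priors (Cdc20, Gmnn, Mcm6, Nusap1 and Rfc4, 13.5%) and 7 with bright probe sets (22%). In the mock line they numbered 1 (Aurka, 7.56%), 3 (Ccnb2, Kif20a and Mcm6, 8.15%) and 5 (17.9%). Bright probe sets called 1 member, Aurka, for mock minus WT (7.13% of all genes). Top2a, near 0, turned to 0.0394 with the probe set of highest mean and lay between -0.0394 and 0.0289 with each line left out, and Tyms to 0.03 without the mock and I53S #1 lines. With no replicate block the call of Nusap1 was lost (adjusted p = 0.0771, limma), as were those of Spc24, E2f6, Myc, Mycn and Klf4 in the mutant lines and of Thy1 for mock, and no call of a named gene was gained. The cause of these shifts was not tested. In WT lines, for mutant minus WT and before OHT, 0 members were called under every alternative run. In the WT lines 0% of all genes passed as well. For mutant minus WT, 3.02% of all genes passed with bright probe sets, 1.66% with trended and robust priors and 0.403% with the filter on the mean. Before OHT 0.246% passed with the values as deposited.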
